A study of Sus scrofa with 34 samples.

Results

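Messenger RNA of 8 genes of the peroxisomal membrane was followed in the liver and ileum of weaned piglets fed heated, oxidized rapeseed oil, a plant-based feed additive, or both. The members were found by their pig Ensembl gene symbol among the 25880 genes of the count tables, and all 8 were present. They are PEX11A and PEX11G, which belong to the family that elongates and divides peroxisomes, the peroxins PEX5, PEX16 and PEX19, the transporters ABCD2 and ABCD3, and ACBD5. The rule used the symbol alone, but the members were chosen with earlier results of these data known.

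Peroxisomes are small organelles bounded by 1 membrane that shorten very long-chain and branched fatty acids and form hydrogen peroxide while doing so. They grow by importing proteins and then divide: PEX16 and PEX19 help to place proteins in the membrane, PEX5 is the shuttling receptor that carries most enzymes inside, and PEX11 proteins shape the membrane before fission. ABCD2 and ABCD3 are half-transporters that bring acyl-CoA across the membrane, and ACBD5 binds very long-chain acyl-CoA and tethers the peroxisome to the endoplasmic reticulum. In rodent liver, ligands of the nuclear receptor PPARα, oxidized fats among them, increase the number of peroxisomes and the expression of PEX11A and ABCD3, whereas pigs are regarded as less responsive. PPARα binds DNA together with RXR at a pair of AGGTCA-like half-sites separated by 1 base, called DR1.

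The liver of 24 crossbred piglets was sequenced, 6 per diet, together with the ileum of 5 control and 5 PFA pigs, which also gave liver. Control pigs ate a basal diet, PFA pigs ate it with the phytogenic feed additive Digestarom, a blend of essential oils and related compounds, OO pigs ate it with rapeseed oil oxidized by heating, and OO + PFA pigs ate it with both. The basal diet held only a small share of fresh rapeseed oil, so the oxidized-oil diets also held more oil, and oxidation and the amount of oil cannot be told apart. The labels give day 28, which the methods count as days of feeding. Each diet was fed in 1 pen, so that pen and diet cannot be told apart. All pigs came from the same commercial cross (Landrace × Large White sows, Pietrain boar), and both sexes entered the trial.

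Levels are in CPM, the count as a share of the library's total, with totals scaled between libraries by the trimmed mean of M-values (TMM). Each library held between 18738055 and 42446834 read pairs assigned to genes in the liver and between 18772230 and 24338165 in the ileum. One OO + PFA liver library (pig 77) had been left out by the study for suspected degradation and was also left out here, so that n was 6, 6, 6 and 5 in the liver. Its 10 highest genes took 48.3% of its counts, and 23.8% to 34.8% was the range elsewhere in liver. The labelled tissues matched their markers, with summed hepatocyte markers of 98633 to 221467 CPM in liver against 1131 to 3848 CPM in ileum. In whole tissue, fewer cells of a type and less RNA per cell cannot be told apart.

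The upstream sequences of PEX11A and ABCD3 are shown because these members changed most with oxidized oil. Both are the 250 bases before the annotated gene start in RefSeq on Sscrofa11.1, written 5′ to 3′ on the strand of the gene, at chr7:55264254-55264503 (minus strand) and chr4:122929455-122929704 (minus strand). Capitals would mark an AGGTCA half-site on either strand, and neither window held one.
PEX11A: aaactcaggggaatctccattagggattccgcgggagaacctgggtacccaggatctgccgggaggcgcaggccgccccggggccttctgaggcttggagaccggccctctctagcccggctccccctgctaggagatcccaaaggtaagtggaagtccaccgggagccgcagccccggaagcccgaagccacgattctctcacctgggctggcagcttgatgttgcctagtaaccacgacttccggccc
ABCD3: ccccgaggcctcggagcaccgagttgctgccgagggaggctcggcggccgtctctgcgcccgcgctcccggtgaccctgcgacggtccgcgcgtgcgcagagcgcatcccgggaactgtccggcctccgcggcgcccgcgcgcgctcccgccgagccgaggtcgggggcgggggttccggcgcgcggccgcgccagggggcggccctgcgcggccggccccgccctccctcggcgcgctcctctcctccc

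With up to 1 mismatch to AGGTCANAGGTCA on either strand, DR1 was found in the 300-base window around the gene start (250 before, 50 after) of 0 of the 8 members and of 56 of 19560 genes (0.286%). Within 10 kb on either side of the start it was found for 2 of the 8 members, PEX16 and PEX19, against 3942 of 19560 genes (20.2%), and no member had an exact match there against 328 genes (1.68%). These sites are shown, with the DR1 letters in capitals and 12 bases on each side, because they are the only such matches near a member, and they belong to members with no call in the main oil comparisons below. The PEX16 site lay in an intron 213 bases after the start (chr2:16555258-16555270) and the PEX19 site 7045 bases before the start, in an intron of the neighbouring gene COPA (chr4:90189941-90189953), both on the strand opposite to the member. A match of letters is a description and shows no binding.
PEX16: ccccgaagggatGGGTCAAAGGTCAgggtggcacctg
PEX19: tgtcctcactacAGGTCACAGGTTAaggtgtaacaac

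PEX11A (ENSSSCG00000027052, chr7:55256239-55264253, minus strand) was higher in OO than in control livers. In control livers it ranged from 12.5 to 21.0 CPM with a median of 13.9 CPM. In OO livers it ranged from 25.9 to 49.4 CPM with a median of 38.2 CPM. Every OO pig was above every control pig, and pig 99 was the lowest of the OO pigs. The means were 15.2 ± 3.44 CPM (SD, n = 6) and 37.8 ± 8.12 CPM (SD, n = 6), a 2.48-fold difference (log2 fold change 1.31, SE 0.16, 95% interval 0.97 to 1.65, adjusted p = 3.16e-05, edgeR quasi-likelihood test with Benjamini-Hochberg adjustment over all genes). In that comparison 2.71% of the 13831 genes tested in liver were called at an adjusted p of 0.05 or less.

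ABCD3 (chr4:122847925-122929454, minus strand), which carries branched-chain and other long acyl-CoA into the organelle, showed the largest rise among the members tested. Control livers ranged from 79.6 to 111.7 CPM (median 96.4 CPM) and OO livers from 175 to 392 CPM (median 290 CPM). The groups did not overlap, and pig 99 was again the lowest of the OO pigs. Mean levels were 94.6 ± 12.8 CPM and 299 ± 77.8 CPM (SD, n = 6 each), a 3.16-fold difference (log2 fold change 1.66, SE 0.21, 95% interval 1.23 to 2.09, adjusted p = 3.16e-05, edgeR, Benjamini-Hochberg). These were the 2 members, of the 7 that passed the filter on low counts, that were called, and no member was lower. Their control and OO ranges were the only member ranges that did not overlap, against 2.24% of all genes tested. The median log2 fold change was 0.27 over the 7 members and 0.06 over all genes. Because the members were chosen with earlier results known, these values describe the set and do not test it.

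With the additive in the oxidized-oil diet, the same 2 members were again above control. PEX11A was at 19.6, 28.5, 34.0, 23.5 and 27.6 CPM in the 5 OO + PFA pigs. Only the first of them, pig 79, lay within the control range. The mean of 26.6 ± 5.46 CPM (SD, n = 5) was 1.75-fold the control level (log2 fold change 0.81, SE 0.17, adjusted p = 0.0137, edgeR, Benjamini-Hochberg). ABCD3 in the same pigs, in the same order, was at 123.9, 305.1, 305.3, 198.5 and 200.5 CPM, all above the highest control. Its mean of 227 ± 78.1 CPM (SD, n = 5) was 2.40-fold the control level (log2 fold change 1.26, SE 0.21, adjusted p = 0.00210, edgeR, Benjamini-Hochberg), in a comparison that called 5.08% of all genes. With pig 77 included (24 libraries) the log2 fold changes were 0.70 (adjusted p = 0.0177) for PEX11A and 1.08 (adjusted p = 0.0134) for ABCD3 (edgeR, Benjamini-Hochberg).

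**Figure D1:**
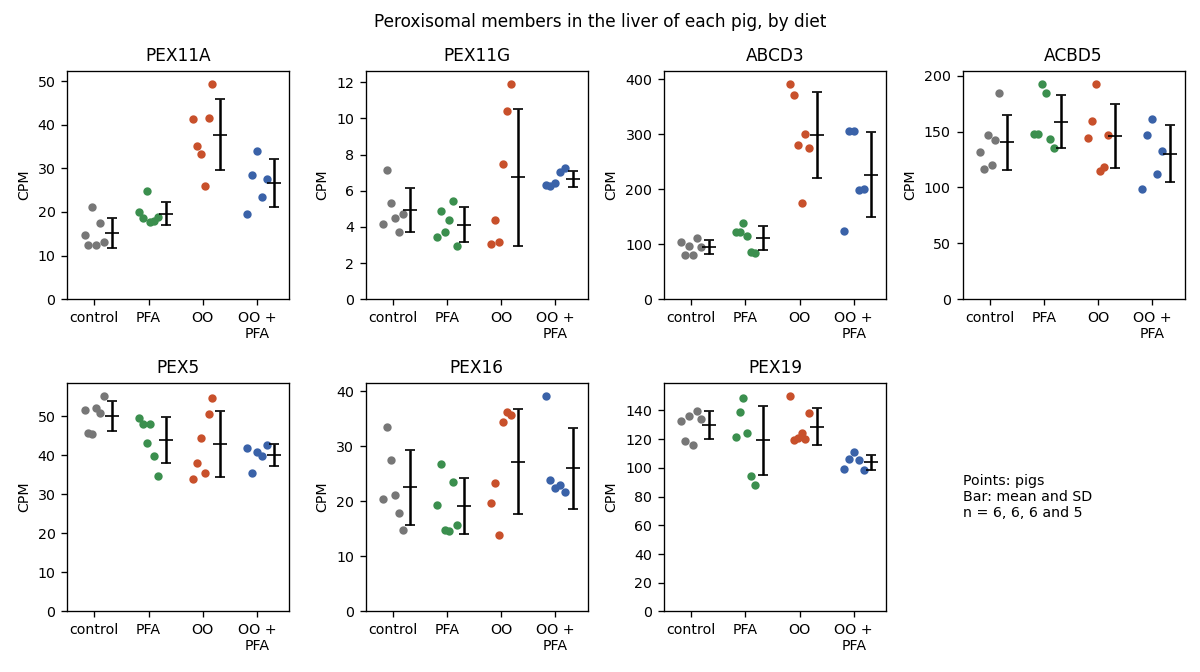
CPM of 7 members in each liver library by diet, with the mean and SD beside the points (n = 6, 6, 6 and 5). All OO pigs lie above all control pigs for PEX11A (25.9 to 49.4 against 12.5 to 21.0 CPM) and for ABCD3 (175 to 392 against 79.6 to 111.7 CPM), while the other members overlap between these diets.

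Against PFA alone, which shares the additive, ABCD3 was higher in OO + PFA livers and PEX11A did not reach the threshold. PFA livers held 84.7 to 138 CPM of ABCD3 (median 118 CPM). OO + PFA pig 79 (123.9 CPM) was within that range and the other 4 pigs were above it. The difference was 2.04-fold (log2 fold change 1.03, SE 0.21, adjusted p = 0.0115, edgeR, Benjamini-Hochberg), with 1.58% of all genes called. For PEX11A, PFA pigs ranged from 17.7 to 24.8 CPM (median 18.7 CPM), and the log2 fold change was 0.44 (SE 0.17, adjusted p = 0.135). Between PFA and OO, which differ in both factors, the ranges of PEX11A and ABCD3 did not overlap, against 1.11% of all genes. When both oxidized-oil diets were set against both diets without it in 1 contrast, ABCD3 rose by 1.34 (SE 0.15, adjusted p = 2.48e-06) and PEX11A by 0.87 (SE 0.12, adjusted p = 3.68e-05) on the log2 scale, where 11.8% of all genes were called (edgeR, Benjamini-Hochberg).

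**Figure D2:**
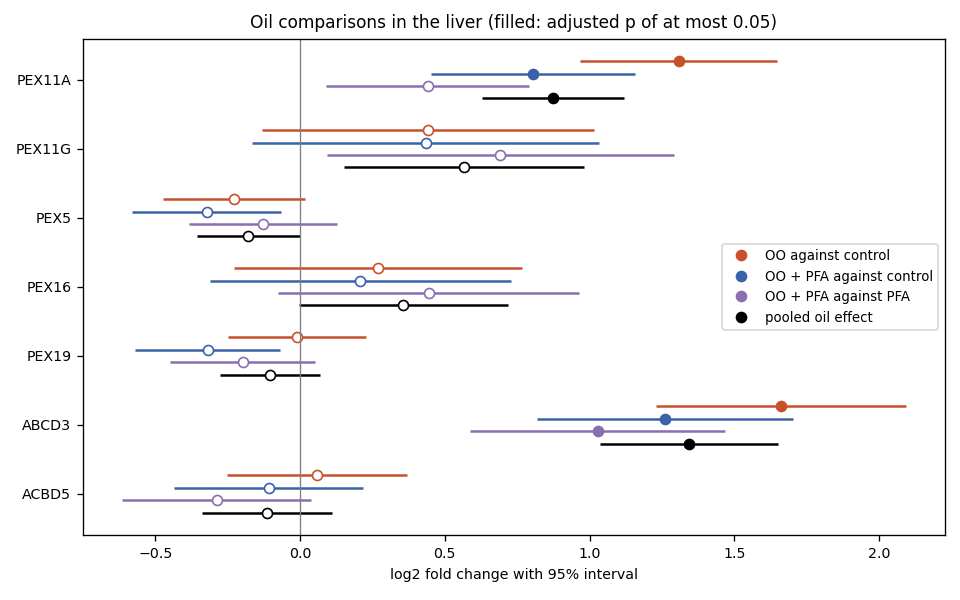
Log2 fold changes with 95% intervals for 7 members in the 3 oil comparisons and in the pooled contrast in the liver, filled where the adjusted p was 0.05 or less. ABCD3 is filled in all 4 and PEX11A in 3 of them, and the other 5 members in none.

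No member passed the test for the additive on top of oxidized oil. All 7 members tested had a negative log2 fold change between OO + PFA and OO, none of them called, where 46.5% of all genes had a positive one. It was -0.50 for PEX11A (SE 0.17, unadjusted p = 0.00685, adjusted p = 0.437), -0.40 for ABCD3 (SE 0.21, adjusted p = 0.606) and -0.31 for PEX19 (SE 0.12, adjusted p = 0.495, edgeR, Benjamini-Hochberg). The sign turned, without a call, for PEX11G (0.10), PEX16 (0.0365) and PEX5 (0.00699) with library totals and no scaling factors, and for PEX11G (0.13) and PEX16 (0.13) with pig 77 included. PEX19 was the member whose OO and OO + PFA ranges did not overlap, against 0.774% of all genes. In this comparison 0.00% of genes were called by edgeR, with 1176 at an unadjusted p under 0.05 and 31 called by DESeq2. The additive alone, against control, gave PEX11A a log2 fold change of 0.36 (SE 0.16, adjusted p = 0.430) and ABCD3 one of 0.23 (SE 0.20, adjusted p = 0.687). There too 0.00% of genes were called by edgeR, with 1522 at an unadjusted p under 0.05 and 43 by DESeq2.

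The oil effect of PEX11A was tested directly for a difference with and without the additive. The interaction was -0.87 on the log2 scale (SE 0.23, 95% interval -1.36 to -0.38, unadjusted p = 0.00114, adjusted p = 0.164, edgeR, Benjamini-Hochberg) and was not called, with 0.00% of all genes called (1881 at an unadjusted p under 0.05). DESeq2 gave the same size with an adjusted p of 0.0474, among 150 genes it called. For ABCD3 the interaction was -0.63 (SE 0.29, adjusted p = 0.345). Across all 4 diets at once, an F-test called PEX11A (adjusted p = 9.12e-05) and ABCD3 (adjusted p = 1.97e-05) and no other member, against 3.66% of all genes (edgeR, Benjamini-Hochberg).

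PEX11G (ENSSSCG00000013569, chr2:71639289-71649445, plus strand), the other PEX11 isoform, did not pass the test in any liver comparison. Control livers held 3.74 to 7.14 CPM (median 4.61 CPM) and OO livers 3.06 to 11.9 CPM (median 5.94 CPM). The OO pigs fell apart: 3 pigs (99, 130 and another) were at 7.48, 11.9 and 10.4 CPM and pigs 74, 88 and 97 at 3.06, 4.40 and 3.16 CPM, below or within the control range. The log2 fold change was 0.44 (SE 0.27, adjusted p = 0.362). OO + PFA pigs were at 6.34, 6.27, 6.42, 7.02 and 7.26 CPM, all above the highest PFA pig (5.43 CPM). The PFA and OO + PFA ranges did not overlap, in either direction, for 6.49% of all genes. The log2 fold change against PFA was 0.69 (SE 0.29, adjusted p = 0.159). The pooled oil contrast gave 0.57 (SE 0.20, adjusted p = 0.0639, edgeR, Benjamini-Hochberg), and leaving out control pig 80 or OO pig 74, 88 or 97 brought it to 0.61 to 0.64 with adjusted p from 0.0181 to 0.0474. Including pig 77 gave 0.64 (adjusted p = 0.0329), PigLiv libraries alone 0.80 (adjusted p = 0.0326) and DESeq2 0.54 (adjusted p = 0.0483), while a correction for GC content gave 0.16 (adjusted p = 0.479), and 0.22 (adjusted p = 0.569) in OO + PFA against PFA.

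PEX16 (chr2:16555045-16560777, plus strand) varied in step with PEX11G, with r = 0.785 over the 23 liver libraries, which share diets and library composition. It ranged from 14.8 to 33.5 CPM (median 20.7 CPM) in control and from 13.9 to 36.2 CPM (median 28.8 CPM) in OO livers. The groups overlapped, and the log2 fold change was 0.27 (SE 0.24, adjusted p = 0.537, edgeR, Benjamini-Hochberg). The pooled oil contrast gave 0.36 (SE 0.17, adjusted p = 0.179), with 0.72 (adjusted p = 0.0248) among PigLiv libraries alone, -0.20 (adjusted p = 0.951) among PL libraries alone and 0.0211 (adjusted p = 0.924) with the GC correction described below. In OO + PFA, pig 79 stood at 39.1 CPM and the other 4 pigs at 23.8, 22.4, 23.02 and 21.7 CPM.

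PEX11G, PEX16 and PEX5 are rich in G and C in their exons (62.9% for PEX11G), while PEX11A (46.6%) and the other members are not. The libraries differed in how GC-rich genes (58% or more, 3096 genes) stood against GC-poor genes (47% or less, 4010 genes). This offset ran from -0.39 to 0.24 on the log2 scale in control, from -0.99 to 0.10 in PFA, from -0.76 to 0.79 in OO and from 0.02 to 0.94 in OO + PFA livers. The 3 OO pigs with the most PEX11G had offsets of 0.63, 0.71 and 0.79, and OO + PFA pig 79 had the highest, 0.94. With a correction for GC content the OO log2 fold change was 0.10 for PEX11G and 0.04 for PEX16, against 1.42 for PEX11A and 1.73 for ABCD3. That correction ran in the 11024 of 13831 genes whose GC content was known (79.7%), including the 7 members tested in liver. With the same correction PEX11A was also called in OO + PFA against PFA (0.66, adjusted p = 0.0326) and PEX5 was called lower in the pooled contrast (-0.26, adjusted p = 0.0481, edgeR, Benjamini-Hochberg).

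**Figure D3:**
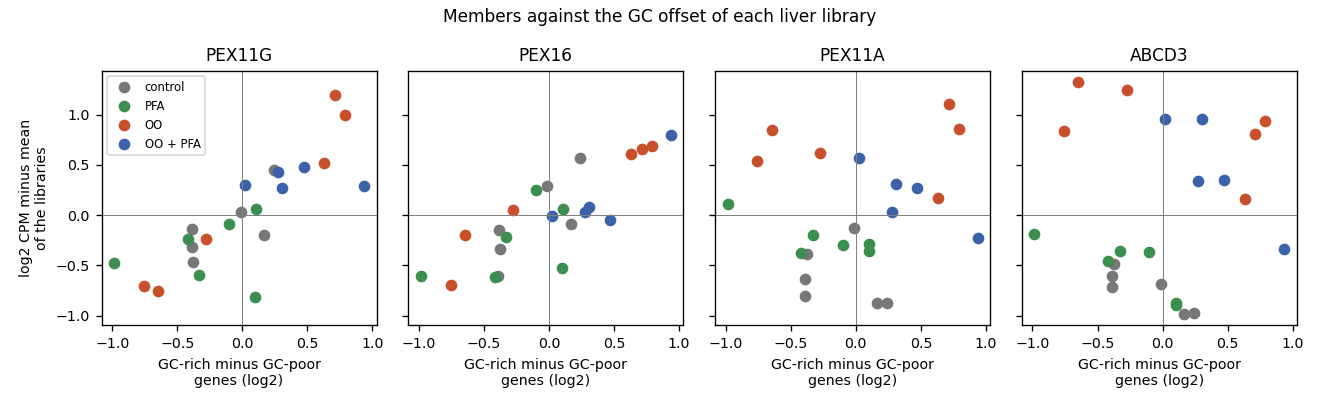
Log2 CPM of 4 members minus their mean over 23 liver libraries, against the difference between GC-rich and GC-poor genes in the same library, coloured by diet. PEX11G and PEX16 are higher where the offset is higher, up to 0.94 on the x axis, while the OO pigs of PEX11A and ABCD3 are high at low and at high offsets.

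The import receptor and the membrane chaperone did not pass the test in any liver comparison. PEX5 (chr5:63542422-63562762, minus strand) was at 45.4 to 55.2 CPM (median 51.1 CPM) in control, 34.0 to 54.5 CPM (median 41.2 CPM) in OO, and 41.9, 35.5, 40.8, 39.7 and 42.7 CPM in OO + PFA livers. All OO + PFA pigs were below all control pigs for PEX5, with a log2 fold change of -0.32 (SE 0.12, adjusted p = 0.117). PEX19 (chr4:90196986-90213308, plus strand) ranged from 116 to 140 CPM (median 133 CPM) in control and from 119 to 150 CPM (median 122 CPM) in OO, and was at 99.1, 106, 111, 105.2 and 98.4 CPM in OO + PFA livers. Its OO + PFA pigs also lay below all control pigs (log2 fold change -0.32, SE 0.12, adjusted p = 0.111, edgeR, Benjamini-Hochberg), and ABCD3 was the third member whose control and OO + PFA ranges did not overlap, against 9.00% of all genes. In OO against control the log2 fold changes were -0.23 for PEX5 (SE 0.12, adjusted p = 0.261) and -0.01 for PEX19 (SE 0.11, adjusted p = 0.970).

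ACBD5 (chr10:48883116-48922377, minus strand), the membrane tether, did not pass the test in any liver comparison. It was at 140 ± 24.7 CPM in control, 159 ± 23.7 CPM in PFA, 146 ± 28.9 CPM in OO and 130 ± 25.6 CPM in OO + PFA livers (SD, n = 6, 6, 6 and 5). All 4 diets overlapped, and the OO log2 fold change was 0.06 (SE 0.15, adjusted p = 0.851, edgeR, Benjamini-Hochberg).

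ABCD2 (chr5:71123187-71180758, minus strand), a close relative of the transporter lost in adrenoleukodystrophy, was at the limit of counting in liver. It had 0 counts in 19 of the 23 libraries and 1 count in the other 4, of which 3 were PFA and 1 was OO + PFA. It did not pass the filter and was not tested there. A count of 0 allowed up to 3 counts per library, or 0.0709 to 0.176 CPM. That is the limit of a single library, and a limit for a difference between diets was not computed.

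Per kilobase of transcript, the order of the control liver levels was ACBD5 (37.4 ± 6.59 CPM per kb), PEX19 (29.2 ± 2.21), ABCD3 (28.7 ± 3.88), PEX16 (18.8 ± 5.71), PEX5 (14.6 ± 1.12), PEX11A (5.66 ± 1.28) and PEX11G (4.71 ± 1.15; SD, n = 6), with ABCD2 at 0. PEX5 and PEX11A did not overlap, while PEX11A and PEX11G did. In OO livers ABCD3 was the first, at 90.9 ± 23.6 CPM per kb, with no overlap with ACBD5 behind it (39.0 ± 7.69), and PEX11A reached 14.0 ± 3.01. In control ileum ABCD3 (35.3 CPM per kb), ACBD5 (30.7) and PEX19 (27.2) were again the highest, and PEX11G (1.65) and ABCD2 (0.309) the lowest.

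Over the 23 liver libraries, the log2 CPM of PEX11A was most like that of ABCD3 (r = 0.915), followed by ETFDH (0.903), which passes electrons to the respiratory chain, the mitochondrial pyruvate carrier subunit MPC2 (0.898), the mitochondrial cyclophilin PPIF (0.890) and GABRQ (0.884). ABCD3 was most like ETFDH (0.950), the very long-chain acyl-CoA synthetase SLC27A2 (0.942) and MPC2 (0.935). PEX11G and PEX16 had other nearest genes, NELFE (0.935), LSM7 (0.905) and CCS (0.900) for the first and TRMT2A (0.936), DNASE1L1 (0.935) and POLD4 (0.934) for the second. The nearest genes were ACP2 (0.796) for PEX5, HABP2 (0.861) for PEX19 and PPM1A (0.906) for ACBD5. These correlations describe libraries that share diets and composition.

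Other peroxisomal genes were read from lists by role. In OO against control, where 2.71% of all genes were called, 0 of 8 other peroxins and 0 of 2 fission genes passed the test, with 1 of 9 other membrane proteins higher. Of the beta-oxidation genes 4 of 14 were higher, and of the other matrix enzymes 0 of 20. In the pooled oil contrast, where 11.8% of all genes were called, 6 of 14 beta-oxidation genes were higher. Among these were SLC27A2 (log2 fold change 1.49), ACSL1 (0.99), which activates long-chain fatty acids, the thiolase ACAA1 (0.78) and the carnitine acetyltransferase CRAT (1.16). The membrane protein TMEM135 rose by 0.41 (adjusted p = 0.0310) and the glyoxylate enzyme AGXT by 1.26 (adjusted p = 0.00279), each 1 of its list (9 and 20 tested). In the fission list FIS1, a mitochondrial and peroxisomal membrane anchor, came nearest to the threshold (-0.24, adjusted p = 0.0923, edgeR, Benjamini-Hochberg). Beside these the 7 members tested counted 2 higher and 0 lower in the pooled contrast, with a median of 0.36 against 0.01 over all genes. Members and lists were chosen with earlier results of these data known, so these counts and medians describe the sets and do not test them.

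Liver library names came in 2 forms, PigLiv and PL, whose meaning the labels do not give, and both forms occur in every diet. Among PigLiv libraries alone, OO against control gave PEX11A 1.34 (adjusted p = 0.00710) and ABCD3 1.58 (adjusted p = 0.0273). Among PL libraries alone, with 2 control and 3 OO pigs, it gave 1.18 (adjusted p = 0.132) and 1.76 (adjusted p = 0.0724, edgeR, Benjamini-Hochberg). The direction was the same in both forms and the call was lost in the smaller one.

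PEX11A lies 5442 bases from PLIN1, the lipid droplet coat gene of fat cells, on the same strand. It overlaps WDR93 and the long noncoding RNA gene LOC106510160, both on the opposite strand. Counts of LOC106510160 were not examined. Whether the counting used strand is not stated. WDR93 held 1 to 13 counts in the 23 fitted liver libraries, against 329 to 1411 for PEX11A. In pig 77, left out of the fit, WDR93 held 8 counts and PEX11A 210. PLIN1 was at 0.453 to 1.92 CPM in control, 1.09 to 2.43 CPM in PFA, 1.51 to 9.77 CPM in OO and 3.73 to 5.24 CPM in OO + PFA livers. The fat cell marker LEP was at 0 in all 23 fitted liver libraries. All 3 fat cell markers, PLIN1 and LEP included, summed to at most 1.95 CPM in control and 2.47 CPM in PFA livers. The highest sums in OO (pig 130, 9.77 CPM) and OO + PFA livers (pig 98, 5.24 CPM) were the level of PLIN1 alone. The 6 macrophage markers, none at 0, summed to values that ran from 277 to 480 CPM in control, 252 to 658 CPM in PFA, 326 to 955 CPM in OO and 502 to 997 CPM in OO + PFA livers. The part of either cell type in the members' values was not tested. The study's quantitative PCR assay for PEX11A, shown to place it on the gene, reads from the first coding exon (forward primer, chr7:55264045-55264064, minus strand) to exon 2 (reverse primer, chr7:55261353-55261372, plus strand), and exon 2 is in 1 of the 2 RefSeq transcripts.
PEX11A forward primer: cttcaccaaccagacccaag
PEX11A reverse primer: actggcctccagtttcttga

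In the ileum the additive gave no call for any member. PEX11A was at 13.6, 10.7, 16.2, 14.5 and 12.7 CPM in control pigs 71, 80, 92, 100 and 110, and at 19.0, 24.2, 15.3, 14.0 and 22.7 CPM in PFA pigs 75, 95, 107, 134 and 138. PFA pigs 75, 95 and 138 were above all controls and the other 2 were not. The means were 13.5 ± 2.07 and 19.0 ± 4.47 CPM (SD, n = 5), and the log2 fold change of 0.49 (SE 0.18, unadjusted p = 0.0199) had an adjusted p of 0.991. ABCD3 was at 116 ± 15.3 and 126.4 ± 20.7 CPM (SD, n = 5), with a log2 fold change of 0.12 (SE 0.13). Among all 14300 genes 0.00% were called, with 401 at an unadjusted p under 0.05 and 4 called by DESeq2 (edgeR quasi-likelihood test, Benjamini-Hochberg).

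ABCD2 was counted in every ileum library. Control pigs 71, 80, 92, 100 and 110 held 17, 1, 28, 15 and 62 counts (0.711, 0.0381, 1.47, 0.745 and 3.33 CPM), and PFA pigs 75, 95, 107, 134 and 138 held 44, 71, 32, 28 and 30 counts (2.19, 3.07, 1.76, 1.15 and 1.57 CPM). The groups overlapped, with pig 80 far below and pig 110 above the PFA pigs (log2 fold change 0.65, SE 0.67). The 7 summed markers of fibroblasts and smooth muscle were highest in pigs 110 (15196 CPM) and 95 (14159 CPM), the pigs with most ABCD2, and lowest in pig 80 (4400 CPM). Summed endothelium markers had the same highest and lowest pigs (268, 241 and 165 CPM). Lymphocyte markers were highest in pig 80 (1093 CPM). Fat cell markers summed to 84.7 CPM in pig 95 and to at most 0.495 CPM in the others. The part of these cell types in the ABCD2 level was not tested.

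Liver and ileum of the same 10 pigs differed for all 8 members. The ileum libraries carried a name form of their own, shared with no liver library. The paper gives a higher lower limit of RNA quality for ileum than for liver. Tissue, library series and RNA quality therefore cannot be told apart here. With TMM factors computed over both tissues, PEX11A ran from 18.1 to 37.0 CPM (median 25.5 CPM) in liver and from 7.38 to 16.5 CPM (median 10.2 CPM) in ileum, and ABCD3 from 116 to 206 CPM (median 145 CPM) in liver and from 68.4 to 108 CPM (median 81.7 CPM) in ileum. The 7 members other than ABCD2 were lower in ileum in 10 of 10 pigs, with no overlap between the tissues. The log2 fold changes were -2.61 (SE 0.21) for PEX11G, -2.46 (SE 0.20) for PEX16, -1.96 (SE 0.09) for PEX5, -1.48 (SE 0.11) for ACBD5, -1.16 (SE 0.12) for PEX11A, -1.11 (SE 0.10) for PEX19 and -0.85 (SE 0.11) for ABCD3. ABCD2 was higher in ileum in 10 of 10 pigs, with 328 counts in the 10 ileum libraries and 2 in the 10 liver libraries, a ratio of 99.9 with a counting interval of 27.4 to 828.6. Its tissue ranges overlapped: the ileum of pig 80 held 1 count (0.0264 CPM) against 0 in its liver, and liver reached 0.0545 CPM in pig 107. All 8 were called (adjusted p at most 1.56e-06, edgeR, Benjamini-Hochberg), as were 78.1% of the 14982 genes tested.

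**Figure D4:**
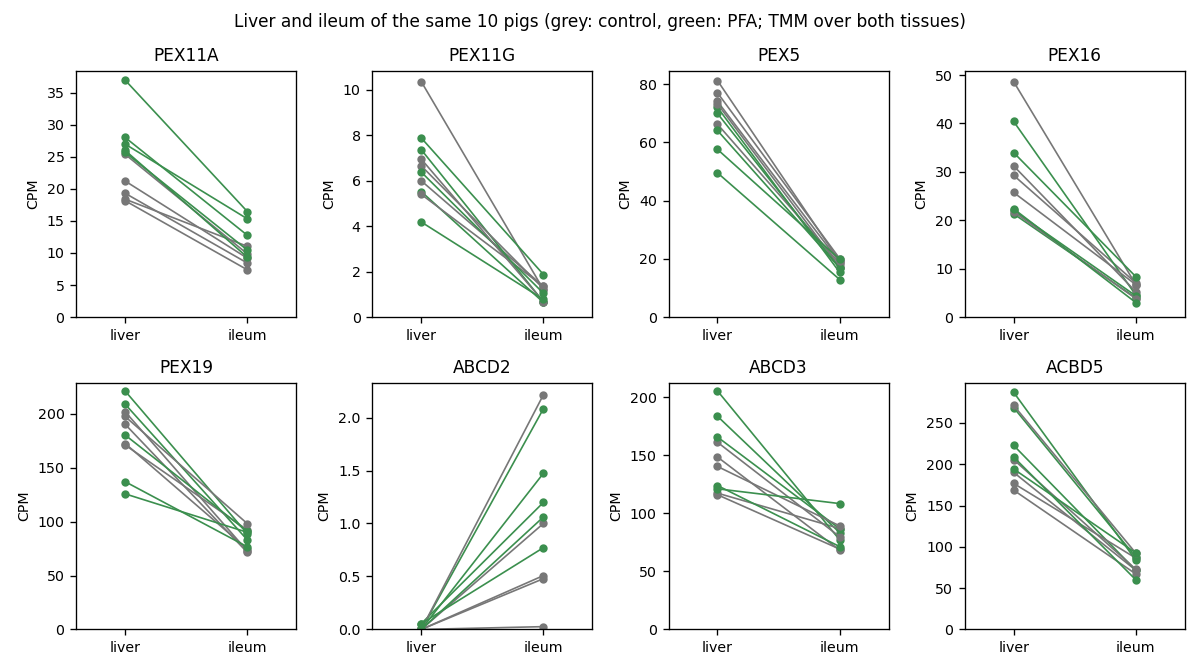
CPM of the 8 members in liver and ileum, 1 line per pig (grey control, green PFA), scaled by TMM over both tissues. All 10 lines fall from liver to ileum for 7 members, and all 10 rise for ABCD2.

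The size of the tissue difference, and for ABCD3 and PEX19 its sign, rested on the scaling. With library totals and no scaling factors, ABCD3 was higher in ileum (0.28, adjusted p = 0.00577), PEX11A (-0.04, adjusted p = 0.757) and PEX19 (0.02, adjusted p = 0.775) were not called, and ACBD5, PEX5, PEX16 and PEX11G stayed lower at -0.35, -0.83, -1.33 and -1.48 (edgeR, Benjamini-Hochberg). The same change moved the median of all genes from 0.05 to 1.17. Relative to that median ABCD3 was at -0.90 with TMM and -0.89 without factors, and PEX11A at -1.21 and -1.20. Among the members other than ABCD2, PEX11G and PEX16 thus had the lowest log2 fold changes and ABCD3 the highest under each scaling.

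**Figure D5:**
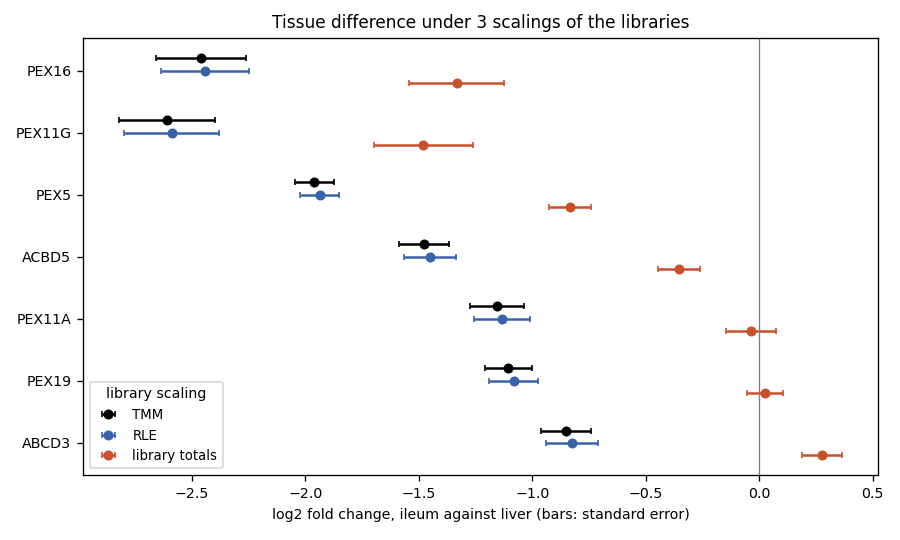
Log2 fold change of 7 members between ileum and liver with TMM, RLE or library totals as the scaling, with standard errors. Library totals shift every member to the right, ABCD3 from -0.85 to 0.28, and keep PEX11G and PEX16 at the low end.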

How the data were processed

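Poly(A) RNA was sequenced as stranded paired-end libraries. The authors deposited raw read counts per Ensembl gene, made with STAR 2.6.1d and HTSeq on Sscrofa11.1, per the labels; the annotation release and HTSeq's strand setting are not given in the sources used here. Reads with no gene, with several alignments or ambiguous between genes were left out, at 7.54 to 27.9, 3.02 to 36.6 and 2.24 to 4.81 per 100 read pairs on genes.

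Counts were tested with edgeR 4.0.16 (quasi-likelihood, TMM, filterByExpr) in R 4.3.3, in a fit of 23 liver libraries by diet (13831 genes), 10 ileum libraries (14300 genes) and 20 libraries of 10 pigs by tissue (14982 genes). Benjamini-Hochberg adjustment ran over all genes of a fit, with a threshold of 0.05. The pigs are separate animals. Depth was 18738055 to 42446834 read pairs on genes; intervals of counts cover counting error only. Levels per kb used the median transcript length. The lists and all 8 members were chosen with earlier results of these data known. The text names all members, up to 4 called genes per list and the 3 to 5 genes nearest to each member; 1 result of a list is not reported here. Alternatives were DESeq2 1.42.0, RLE and no scaling, other filters, a GC correction, library terms, name forms, 2-diet fits, all 24 livers, a pig block and each pig left out. The no-scaling and library-term alternatives were added after the data were seen. Same-pig tissue samples are paired by animal: deviations from the group means correlated at -0.18 to 0.46 over the 10 pigs. Scripts were tested on simulated data.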

Additional observations from a re-analysis of the deposited data

Results flagged for a closer look

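Each group of 5 or 6 pigs was screened for 1 pig far from the others, for each of the 8 members (44 groups, of which chance alone marks about 1 in 20), and 4 were found. PEX11A stood at 24.8 CPM in the PFA liver of pig 95, with the others at 17.7 to 19.99 CPM. PEX11G stood at 1.02 CPM in the control ileum of pig 110, with the others at 1.75 to 2.01 CPM. PEX16 stood at 39.1 CPM in the OO + PFA liver of pig 79, with the others at 21.7 to 23.8 CPM, and at 12.5 CPM in the PFA ileum of pig 134, with the others at 4.45 to 6.77 CPM. The OO + PFA liver library of pig 77, which entered only the fits of all 24 liver libraries, held PEX11G at 10.8 CPM, above the controls at 3.70 to 7.06 CPM, and PEX16 at 47.2 CPM, above the controls at 14.6 to 33.1 CPM, when all 24 libraries were scaled together.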

How the results depend on the processing

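PEX11A and ABCD3 in OO against control stayed higher under every alternative run, at 1.18 to 1.42 and 1.45 to 1.78 on the log2 scale. Numbers of members called moved as follows, the cause not tested. PL libraries alone, which hold 2 control, 3 PFA, 3 OO and 1 OO + PFA pig, so that the lone pig is assumed to vary like the others, gave 0 in OO against control, OO + PFA against control, OO + PFA against PFA, the pooled contrast and the F-test. PigLiv libraries alone gave 0 in OO + PFA against PFA and 4 in the pooled contrast (PEX11G 0.80 and PEX16 0.72 added). Fits of only the 2 diets compared gave 4 in OO + PFA against control (PEX5 and PEX19 at -0.31 each, adjusted p = 0.0419 and 0.0442) and 2 against PFA (PEX11G 0.67, adjusted p = 0.0354). The GC correction gave 2 in OO + PFA against PFA, and DESeq2 gave 1 in the interaction (PEX11A). Leaving out each pig in turn gave 2 to 3 in the pooled contrast.

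Signs turned for members that were not called, and for PEX19 and ABCD3 between tissues, which were. In OO against control, PL alone gave PEX11G -0.0129 and PEX16 -0.39, the GC correction gave PEX19 0.10, PigLiv alone gave PEX19 0.0225 and ACBD5 -0.19, and the term for read pairs on no gene gave ACBD5 -0.0252. Leaving out each pig gave PEX19 -0.0595 to 0.0172 and ACBD5 -0.0367 to 0.17. In the pooled contrast PL alone gave PEX16 -0.20, and the GC correction gave PEX19 0.0820 and ACBD5 0.0682. In OO + PFA against OO the turned signs are given with that comparison. In the ileum the GC correction gave ABCD3 -0.0366. Between tissues, no scaling factors gave PEX19 0.0248 and ABCD3 0.28. With the pig as a block (paired by animal), the tissue values were -1.17 for PEX11A and -0.84 for ABCD3, and all 8 members were called as without the block. A filter of at least 10 counts in every library gave no value for ABCD2. The 1499 alternatives counted hold either the log2 fold change of a member or the number of members called. Of these, 1443 kept direction and side of the threshold or, for numbers called, stayed equal or close. All members were followed singly only in OO against control, the pooled contrast and between tissues. The turned signs of PEX11G, PEX16 and PEX5 in OO + PFA against OO are thus not among the 1499. ABCD2 had too few liver counts to be tested.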
